A study of Saccharomyces cerevisiae with 36 samples.

Results

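The genes described here encode the core machinery that builds iron-sulfur clusters in mitochondria of the budding yeast Saccharomyces cerevisiae. The 10 members, ISU1, ISU2, NFS1, ISA1, ISA2, YAH1, ARH1, YFH1, GRX5 and SSQ1, were taken by gene symbol from the platform's probe table, and all 10 were found among the 5656 genes with a symbol. Only GRX5 had a second probe set, and the brighter one was used. The yeast grew in continuous culture, and 36 Affymetrix arrays followed 3 successive cycles of 12 positions, 1 array per position and cycle, at about 25 min per position. No treatment or genotype separates the groups, which are the 12 positions with 3 arrays each. The strain and medium are not given in the sources used here, and no separate cultures are named, so the p-values reflect the spread among these arrays alone.

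Iron-sulfur clusters are cofactors of respiratory complexes, of aconitase and of several enzymes of amino acid synthesis. In mitochondria the cysteine desulfurase Nfs1 supplies sulfur, the scaffold proteins Isu1 and Isu2 carry the new cluster, frataxin (Yfh1) assists at this step, and the ferredoxin Yah1 with its reductase Arh1 supplies electrons. The Hsp70 chaperone Ssq1 and the glutaredoxin Grx5 then act in releasing and passing on the cluster, and Isa1 and Isa2 act late, on clusters of the aconitase kind.

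The unit throughout is the intensity of a probe set divided by the median of its array, and intensities of different probe sets are not compared as levels. Courses were fitted on the log2 scale with a cosine of period 12 positions. The distance from trough to peak of that curve is called the swing, in log2. Fitted peaks run on a circle, so that 0.57 lies between positions 12 and 1. The cosine passed limma's moderated F test at an adjusted p under 0.05 for 9 of the 10 members, beside 78.8% of all genes tested. Among these, 5 members (ISU1, ISU2, YAH1, ARH1 and YFH1) swung by 2-fold or more, beside 38.1% of all genes, and ISU2 and YAH1 by 4-fold or more, beside 10.6%. Added terms with a period of 6 positions were called for ISU1 and GRX5, with swings of 0.55 and 0.52, beside 12.4% of all genes. Leaving out any 1 cycle left neither called, and ISU1 was also lost with quantile normalization and without the variance trend. The median swing was 0.94 over the members and 0.77 over all genes. The members' count is thus close to the background, and what follows concerns when each gene was high.

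**Figure D1:**
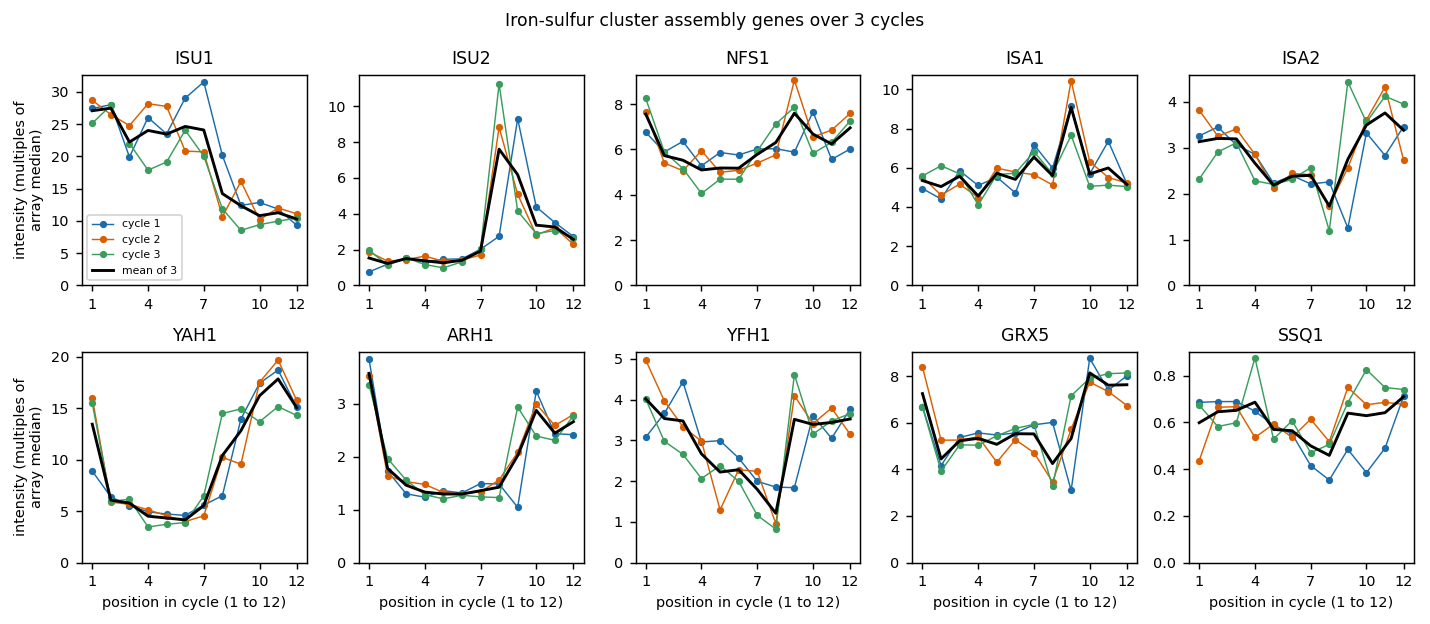
Intensity (multiples of the array median, linear axes from 0) against position in the cycle for each of the 10 genes, with the 3 cycles as coloured lines and their mean in black. ISU1 is high at positions 1 to 7 and low at positions 9 to 12, ISU2 jumps at position 8 or 9, and YAH1 and ARH1 are high from position 10 to position 1.

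The paralogous scaffold genes ran against each other. ISU1 stood between 17.9 and 31.5 on all arrays of positions 1 to 7 and between 8.54 and 16.1 on all arrays of positions 9 to 12. At position 8 it read 20.2, 10.6 and 11.9 in cycles 1, 2 and 3, so cycle 1 was still high there. ISU2 stood between 0.751 and 2.02 on all arrays of positions 1 to 7 and between 2.29 and 11.2 on all arrays of positions 8 to 12. The fall of one and the rise of the other thus fell in the same part of the cycle. These stretches were cut for each gene from the values themselves, so their lack of overlap carries no test.

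ISU1 had a swing of 1.31 ± 0.18 (SE) with a fitted peak at position 4.04 (adjusted p = 2.2e-07 in limma). ISU2 had a swing of 2.01 ± 0.25, a 4.04-fold change, with a fitted peak at position 9.35 (adjusted p = 3.2e-08 in limma). Its swing was 1.42 without positions 8 and 9 and 1.48 with array weights and robust variances. Both lie below 4-fold, so the place of ISU2 in the 4-fold count depended on the setting. The fitted peaks of ISU2 were at 9.30, 9.33 and 9.41 in cycles 1, 2 and 3, although its highest array moved from position 9 in cycle 1 to position 8 in the later cycles. Those of ISU1 were at 4.71, 3.76 and 3.74. The highest ISU1 array lay at positions 7, 1 and 2, since the gene stayed on a plateau rather than at a peak. The difference of their log2 values had a swing of 3.27 (adjusted p = 1.9e-05, permutation test over the 36 arrays). That difference, taken against its own mean over all arrays, was -1.44 ± 0.18 (SD, n = 3) at position 2 and 1.96 ± 0.62 at position 9. No probe sequences were used, so cross-hybridization between the 2 paralogs was not tested. The correlation of their log2 values over the 36 arrays was -0.70, as a description of arrays that share one culture and one scaling.

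**Figure D2:**
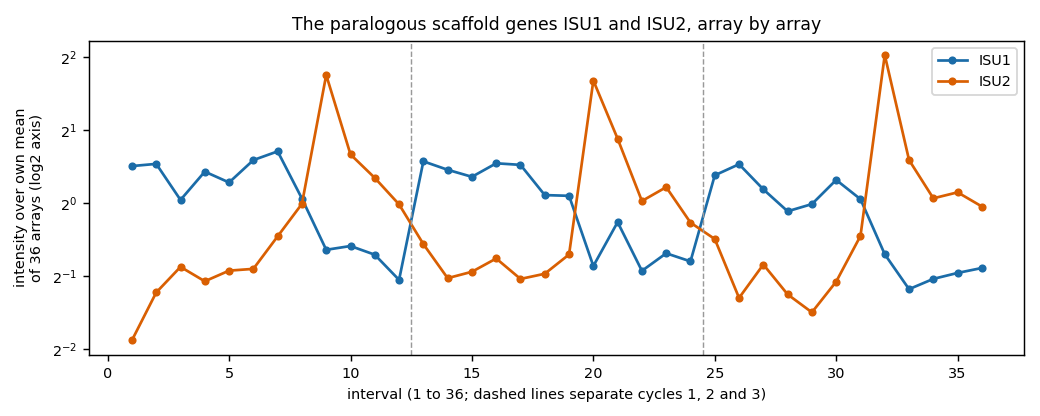
Intensity of ISU1 (blue) and ISU2 (orange) on each of the 36 arrays in time order, each divided by its own mean over all arrays, on a log2 axis, with dashed lines between cycles. In each cycle ISU2 is highest on 1 array (position 9 in cycle 1, position 8 in cycles 2 and 3), while ISU1 falls from its plateau.

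The bacterial spike controls, which carry no yeast RNA, moved in the direction of ISU1 between the middle and the end of the cycle. Their mean over 9 probe sets was 5.45 at positions 4 to 6 and 4.09 at positions 10 to 12, a log2 difference of -0.38. From position 12 to 1 they rose by 0.51 log2, and from position 7 to 8 they changed by 0.09. Over the same positions ISU1 differed by -1.14, rose by 1.39 and fell by 0.78. The control probes for 25S ribosomal RNA moved the other way, with a log2 difference of 0.32 between positions 10 to 12 and 4 to 6, the direction of the members that were higher late. Those for 18S ribosomal RNA did not share this, with a log2 difference of -0.04, and they rose by 0.36 from position 12 to 1. These log2 values are averages of log2 intensity over probe sets. The mean 18S intensity itself was 6.69 at positions 4 to 6 and 4.52 at positions 10 to 12, the direction of ISU1. The part of any of these controls in the members' values was not tested.

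YAH1 and ARH1, the ferredoxin and its reductase, were both high at the end of the cycle and at position 1. YAH1 stood between 3.46 and 6.48 on all arrays of positions 2 to 7 and between 9.56 and 19.7 on all arrays of positions 9 to 12. At position 1 it read 8.89, 16.0 and 15.5 in the 3 cycles, with the first array of the series the lowest. Its swing of 2.15 ± 0.14 (SE) was the largest of the 10 genes, with a fitted peak at position 10.8 (adjusted p = 2.3e-15 in limma). ARH1 stood between 1.20 and 1.97 on all arrays of positions 2 to 8, and at 3.85, 3.52 and 3.36 at position 1, where it was highest in each cycle. Its swing was 1.25 ± 0.14 with a fitted peak at position 11.6 (adjusted p = 5.2e-09 in limma). The courses of these partners differed, with a swing of 1.12 in the difference of their log2 values (adjusted p = 1.9e-05, permutation test). YAH1 had already risen at position 8, to 6.49, 10.2 and 14.5, where ARH1 read 1.49, 1.56 and 1.23.

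NFS1, the desulfurase, had a small swing. It stood at 6.76, 7.67 and 8.25 at position 1 and at 5.28, 5.94 and 4.06 at position 4, with a swing of 0.47 ± 0.10 (SE) and a fitted peak at position 10.8 (adjusted p = 0.00037 in limma). The highest mean of NFS1 was at position 9, where the arrays read 5.88, 9.06 and 7.87 and overlapped those of position 4. Within cycles 1, 2 and 3 its swing was 0.16, 0.58 and 0.66. YFH1, frataxin, stood at 3.08, 4.97 and 4.01 at position 1 and at 1.85, 0.955 and 0.823 at position 8, with a swing of 1.16 ± 0.21 and a fitted peak at position 0.76 (adjusted p = 2.9e-05 in limma). These genes act at the same step of synthesis, and their courses differed by a swing of 1.01 (adjusted p = 1.9e-05, permutation test).

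Among the late-acting members, ISA2 and ISA1 swung by less than the median of 0.77 over all genes. ISA2 had a swing of 0.73 ± 0.16 (SE) with a fitted peak at position 0.57 (adjusted p = 0.00058 in limma). ISA1 was highest at position 9 in each cycle, at 9.15, 10.4 and 7.66, against 5.99, 5.12 and 5.69 at position 8 and 5.69, 6.31 and 5.06 at position 10. Other arrays were also raised: positions 7 and 11 read 7.18 and 7.35 in cycle 1, and position 7 read 6.82 in cycle 3. A rise on 1 array is poorly described by a cosine. The ISA1 swing of 0.43 ± 0.12 (adjusted p = 0.0044 in limma) became 0.29 without positions 8 and 9 (adjusted p = 0.071 in limma). The limma adjusted p was 0.074 without cycle 1 and 0.058 without cycle 2. ISA1 and ISA2, whose products work together, differed in course (swing of the difference 0.99, adjusted p = 0.00017, permutation test).

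GRX5 had a swing of 0.58 ± 0.16 with a fitted peak at position 11.5 (adjusted p = 0.0044 in limma, and 0.093 without cycle 2). Its second probe set read only 0.0868 to 0.314 and was not called, with a swing of 0.30 ± 0.15 (adjusted p = 0.17 in limma). SSQ1 was not called, with a swing of 0.33 ± 0.13 (adjusted p = 0.058 in limma). It read 0.353 to 0.876 over the 36 arrays, lies among the dimmest 25% of genes, and had fitted peaks at 2.35, 10.4 and 12.1 in the 3 cycles. Its adjusted p for the cosine lay between 0.023 and 0.25 in limma over the alternatives, on both sides of the threshold. With position as a 12-level factor in place of the cosine, the limma adjusted p of SSQ1 was 0.42.

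**Figure D3:**
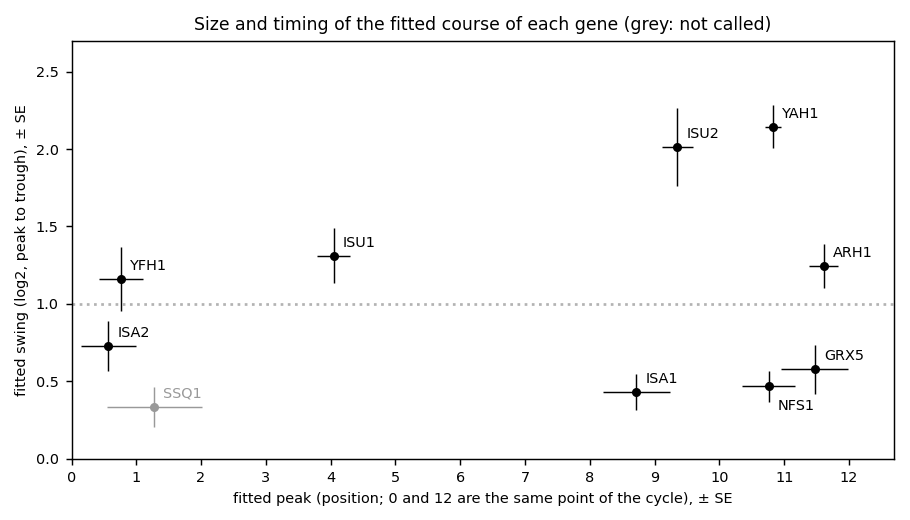
Fitted swing (log2, peak to trough) against fitted peak position for each gene, with bars of 1 SE in both directions, a dotted line at a 2-fold swing and SSQ1, not called, in grey. ISU1 stands apart at position 4.04, while the other called genes peak between positions 8.71 and 0.76 of the next cycle.

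Of the 10 members, 8 were called with a fitted peak between positions 8.5 and 1.5 across the end of the cycle, beside 35.6% of all genes. ISU1 was called with a peak elsewhere. The edges of this window lie close around the members' own fitted peaks, so the count describes them and carries no test. A contrast without a cosine compared the 9 arrays of positions 10 to 12 with the 9 arrays of positions 4 to 6. At an adjusted p under 0.05 in limma, 7 members were higher at positions 10 to 12, beside 29.1% of all genes, and 1 was lower, beside 28.8%. The median log2 difference was 0.55 over the members and 0.02 over all genes. The 9 late arrays lay wholly above the 9 middle arrays for 5 members (ISU2, YAH1, ARH1, YFH1 and GRX5), beside 14.7% of all genes, and wholly below for ISU1, beside 13.8%.

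The largest difference was that of YAH1, which had its lowest, median and highest arrays at 13.7, 15.8 and 19.7 late and at 3.46, 4.55 and 5.12 in the middle. This was a log2 difference of 1.91 ± 0.13 (SE, adjusted p = 1.4e-13 in limma), and within single cycles it lay between 1.83 and 1.95. ISU1 had 9.32, 10.4 and 12.9 late and 17.9, 24.1 and 29.0 in the middle, a difference of -1.14 ± 0.13 (adjusted p = 8.5e-09 in limma). ISU2 differed by 1.15 ± 0.20 and ARH1 by 0.99 ± 0.12, both in each of the 3 cycles.

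GRX5 differed by 0.55 ± 0.12 (adjusted p = 0.00036 in limma), with 6.74, 7.92 and 8.77 late against 4.31, 5.44 and 5.76 in the middle. On its dim second probe set the sign was turned, at -0.28 (adjusted p = 0.069). YFH1 (0.56 ± 0.18), ISA2 (0.54 ± 0.16) and NFS1 (0.36 ± 0.10) were called over 3 cycles but not without cycle 2, where the limma adjusted p was 0.12, 0.064 and 0.051, and YFH1 and NFS1 also not without cycle 3, at 0.071 and 0.074. ISA1 (0.10 ± 0.09) and SSQ1 (0.10 ± 0.13) did not pass, and in both 1 cycle had the opposite sign.

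**Figure D4:**
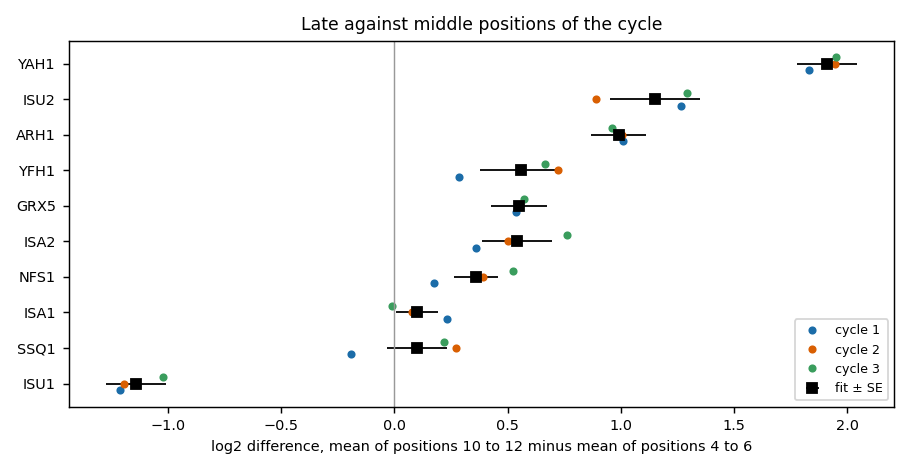
Log2 difference between the mean of positions 10 to 12 and the mean of positions 4 to 6 for each gene, as the fitted value ± SE (black squares) and as the value within each cycle (coloured points). Every cycle lies above 0 for 7 genes and below 0 for ISU1.

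Changes between neighbouring positions placed the moves of single genes. Over the 10 members and 12 steps, 11 changes passed limma at an adjusted p under 0.05. From position 7 to 8, ISU2 rose by 1.74 ± 0.34 log2 (SE) and YAH1 by 0.84 ± 0.23, beside 16.6% of all genes, and ISU1 fell by 0.78 ± 0.23, beside 12.5%. From position 8 to 9, YFH1 rose by 1.48 ± 0.31 and ISA1 by 0.68 ± 0.16, beside 11.7% of all genes. From position 9 to 10, GRX5 rose by 0.69 ± 0.22, beside 6.26% of all genes, and ISA1 fell by 0.67 ± 0.16, beside 7.55%. The cycles were not alike at these steps. In cycle 1 YFH1 read 1.85, 1.84 and 3.61 at positions 8, 9 and 10, so its rise came 1 step later. ISU2 went only from 2.01 to 2.74 from position 7 to 8 in cycle 1. GRX5 went from 3.10 to 8.77 from position 9 to 10 in cycle 1, but from 5.72 to 7.75 and from 7.16 to 7.92 in cycles 2 and 3.

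At the turn of the cycle the called moves lay at successive steps. From position 12 to 1, ISU1 rose by 1.39 ± 0.23, beside 8.17% of all genes, and from position 1 to 2 YAH1 fell by 1.09 ± 0.23, ARH1 by 0.99 ± 0.21 and GRX5 by 0.70 ± 0.22, beside 10.2%. No member was called at any step between positions 2 and 7 or between 10 and 12, where at most 1.41% of all genes were called in one direction at a step. Leaving out cycle 2 left 1 called change, the rise of ISU1 from position 12 to 1, and leaving out cycle 1 gave 18.

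The arrays of positions 8 and 9 were less alike between cycles than those of other positions. The median correlation across genes between the 3 arrays of a position was 0.859 at position 9 and 0.927 at position 8, against at least 0.973 elsewhere. NSR1, a nucleolar protein used as a mark of the burst of ribosome assembly, was highest at position 9 in cycle 1 but at position 8 in both later cycles. Not every gene shifted so: RPL17B, a cytosolic ribosomal protein, was highest at positions 9, 9 and 8, and the member ISA1 at position 9 in each cycle. ISU2 had its highest array at the positions of NSR1, at 9.31, 8.83 and 11.2, a pattern shared by 14.0% of all genes.

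On those arrays 3 members were at their lowest of the cycle: ISA2, YFH1 and GRX5 were lowest at position 9 in cycle 1 but at position 8 in both later cycles, beside 9.09% of all genes. YFH1 read 1.84, 0.955 and 0.823 there and 3.61, 4.10 and 4.62 on the next array, which was 1.96-fold, 4.29-fold and 5.61-fold higher in cycles 1, 2 and 3. GRX5 read 3.10, 3.47 and 3.27 there, against 6.02, 4.72 and 5.94 on the array before and 8.77, 5.72 and 7.16 on the array after. ISA2 read 1.25, 1.74 and 1.19 there and 3.33, 2.56 and 4.44 on the next array. On the array before, YFH1 read 1.85, 2.24 and 1.16 and ISA2 read 2.25, 2.41 and 2.57. GRX5 and ISA2 thus dipped on the array of the ISU2 maximum in each cycle, while YFH1 was already as low on the array before in cycle 1 and had been falling in cycle 3. The alignment was read from the data, so it carries no test.

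**Figure D5:**
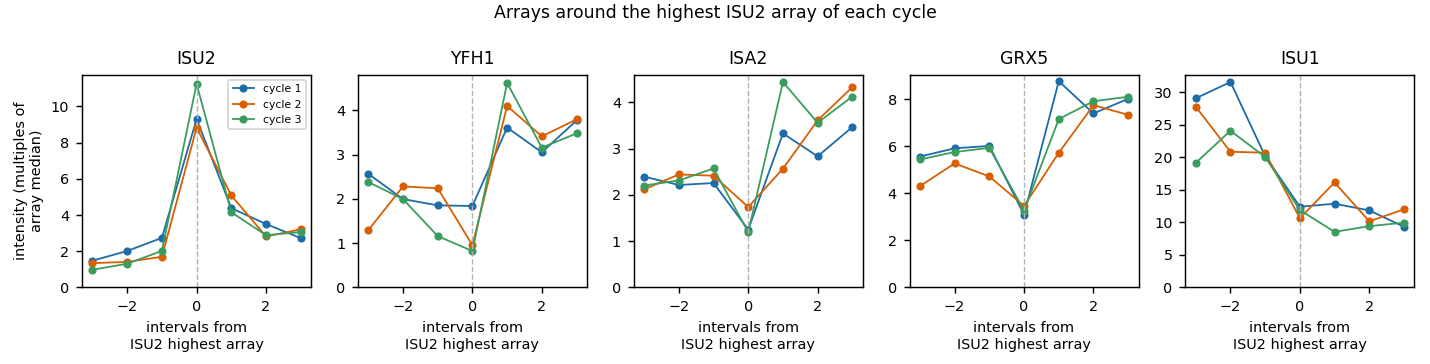
Intensity (multiples of the array median, axes from 0) of 5 genes on the arrays from 3 intervals before to 3 after the highest ISU2 array of each cycle, 1 line per cycle. YFH1, ISA2 and GRX5 are lowest at 0 and higher on the next array in all 3 cycles, and ISU1 is falling.

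All 45 pairs of members were compared by the cosine of the difference of their log2 values, and 42 differed at an adjusted p under 0.05 in the permutation test. Pairs of other genes were not compared, so neither this count nor the difference of any pair is shown to be particular to the members. The smallest p these 100000 permutations can give is 1e-05, and they treat successive arrays as exchangeable. The pairs not shown to differ were NFS1 with GRX5 (swing of the difference 0.22, adjusted p = 0.46), ISA2 with SSQ1 (0.43, adjusted p = 0.075) and GRX5 with SSQ1 (0.47, adjusted p = 0.075). A difference of course can be one of size or of timing: YAH1 and NFS1 had fitted peaks 0.06 positions apart, yet the swing of their difference was 1.68.

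Limma called 0 members for a difference of level between the cycles, beside 0.053% of all genes, and 0 for a difference of swing or timing, beside 0.0354%. The count was also 0 under each of the 11 alternatives run for both tests. Without adjustment, ISU1 passed at 0.05 for level, beside 5.73% of all genes, and SSQ1 for swing or timing, beside 4.61%.

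The other genes of the pathway were taken from lists by the place and role of their products. Their counts are read against the shares of all genes, of which 78.8% were called as cycling, 29.1% were higher at positions 10 to 12 and 28.8% were lower. Of 13 other measured genes of mitochondrial assembly and transport, 13 were called as cycling, 9 were higher at positions 10 to 12 than at 4 to 6, and 1 was lower. The largest swings were those of IBA57, a late-acting partner of the Isa proteins (1.75 ± 0.23, SE, fitted peak at position 0.73), of MGE1, the nucleotide exchange factor of mitochondrial Hsp70 (1.74 ± 0.14, position 11.1), and of RIM2, a mitochondrial pyrimidine nucleotide carrier (1.65 ± 0.15, position 10.5). NFU1, a late-acting factor, had the smallest (0.38 ± 0.13, position 3.77) and was the gene that was lower late. JAC1, the J-protein that works with Ssq1, was called with 0.92 ± 0.16 and a peak at position 11.1, and ISD11, the partner of Nfs1, with 0.77 ± 0.16 and a peak at position 1.65. Both were named for their partners after their values were seen.

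Of 10 genes of the cytosolic assembly machinery 7 were called, 2 were higher and 2 lower at positions 10 to 12, near the shares of 78.8%, 29.1% and 28.8% of all genes. TAH18, which supplies electrons there, led with 1.08 ± 0.21 (SE, position 7.94), followed by YAE1, an adaptor for Rli1 (0.85 ± 0.15, position 8.57), and NAR1, itself an iron-sulfur protein of this pathway (0.78 ± 0.21, position 6.16). NBP35, a scaffold of that pathway, had the smallest swing (0.14 ± 0.09) and was not called, nor were MET18 (0.67 ± 0.27) and LTO1 (0.18 ± 0.15). The median log2 difference between positions 10 to 12 and 4 to 6 was 0.06 for these genes and 0.95 for the mitochondrial group.

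Genes for proteins that carry the clusters peaked at several times. All 7 measured mitochondrial ones were called, led by LYS4, homoaconitase of lysine synthesis (3.35 ± 0.26, SE, position 9.62), ILV3 of branched-chain amino acid synthesis (1.25 ± 0.15, position 8.33) and ACO1, aconitase (1.18 ± 0.20, position 1.34). BIO2, biotin synthase, had the smallest swing (0.34 ± 0.12). Of these 7 genes, 4 were higher at positions 10 to 12 and none was lower, beside 29.1% and 28.8% of all genes. Of 14 cytosolic and nuclear ones 11 were called, beside 78.8% of all genes, with 6 higher and 1 lower at positions 10 to 12, beside 29.1% and 28.8%. LEU1 of leucine synthesis (2.14 ± 0.25, position 10.7), DPH1 of diphthamide synthesis (2.03 ± 0.31, position 9.43) and RLI1, a ribosome recycling factor (1.84 ± 0.24, position 8.94), had the largest swings. NTG2 (0.37 ± 0.14), DNA2 (0.22 ± 0.16) and CHL1 (0.08 ± 0.10) were not called.

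Of 9 iron sensing genes 4 were called, beside 78.8% of all genes, with 3 higher and 1 lower at positions 10 to 12, beside 29.1% and 28.8%, and the median swing was 0.43. GRX3 (1.33 ± 0.15, SE, position 10.1) and GRX4 (0.83 ± 0.16, position 9.85), cytosolic glutaredoxins that bind a cluster, and AFT1, the main activator of the iron regulon (0.92 ± 0.12, position 10.8), were the largest. YAP5 had the smallest swing of the called genes (0.47 ± 0.13, position 6.06) and was the gene that was lower late. AFT2, FRA1, BOL2 (also called FRA2), CCC1 and TIS11 were not called, with swings between 0.15 and 0.43, and AFT2 and TIS11 lie among the dimmest 25% of genes.

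The genes most like each member were those with the highest Pearson r of log2 values over the 36 arrays, among 4233 genes above the dimmest 25% that are no members. These correlations describe arrays of one culture and carry no test. ISU2 was most like OAC1, a mitochondrial oxaloacetate carrier (r = 0.97, fitted peak at position 9.54), and YBL081W (r = 0.95). ISU1 was most like USV1, a putative transcription factor (r = 0.92), and LSP1, an eisosome protein (r = 0.91), with fitted peaks at positions 3.71 and 4.17. YAH1 was most like PMT4, a protein mannosyltransferase (r = 0.96), and TIM23, the channel of mitochondrial import (r = 0.95). ARH1 was most like OMS1 (r = 0.95) and MRP1, a mitochondrial ribosomal protein (r = 0.94). YFH1 was most like MRP20, also of the mitochondrial ribosome (r = 0.91), and FUM1, fumarase (r = 0.89). ISA2 was most like KGD2 of the 2-oxoglutarate dehydrogenase complex (r = 0.86) and MRX20 (r = 0.86).

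The remaining members had less close neighbours. NFS1 was most like the sulfate permease gene SUL1 (r = 0.86) and the allantoate permease gene DAL5 (r = 0.85). GRX5 was most like MSH6 of mismatch repair (r = 0.83) and PMT3 (r = 0.82). ISA1 was most like THI2 (r = 0.73) and ATR1 (r = 0.72), and SSQ1 was most like ECM30 (r = 0.66) and ATP7, a subunit of the mitochondrial ATP synthase (r = 0.61).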

How the data were processed

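The deposited values are probe-set intensities on a linear scale. The median of every array is 1, so each array was divided by its median before the authors deposited it. Per the labels, the arrays are Affymetrix; how probes were summarised is not given in the sources. Among the 9335 probe sets, 6504 carried 1 symbol, and names were updated through the R64 gene table. Each of 5656 genes was represented by its brightest probe set. Intensities were taken as log2(value + 0.0516), the pseudocount being the 10th percentile of positive values, so fold changes of dim genes are understated.

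Tests used limma 3.58.1 in R 4.3.3, with the variance trend over mean intensity modelled, and p-values adjusted over all genes (Benjamini-Hochberg, 0.05). Pairs were tested with 100000 permutations in Python 3.11.15, adjusted over 45 pairs. The tests across genes were also run on simulated data. The simulated noise was independent between arrays, so these runs cannot show how the tests behave on successive arrays of one culture. In a bulk culture, a change in the share of cells at a stage of division and a change of RNA per cell cannot be told apart. The number of arrays limits the precision. Members, lists and tests were chosen with earlier results of these data known. Besides all members, the text names in each list the 3 called genes with the largest swing, the one with the smallest and up to 5 not called, and the 2 genes most like each member. Alternatives covered scaling, pseudocount, dim genes, probe sets, the error model, the shape of the course and cycles left out. No sequences were used here.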

Additional observations from a re-analysis of the deposited data

How the results depend on the processing

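The count of members called as cycling stayed between 8 and 10 over 14 alternatives, of which leaving out positions 8 and 9 was chosen after seeing the data, and the count of pairs that differed stayed between 37 and 44 over 9. With the cycle number as a replicate block, 10 members were called as cycling instead of 9, SSQ1 being added (adjusted p = 0.049 in limma), and 8 members, 11 steps and 42 pairs were called as without it. Cycle numbers mark stretches of time. Deviations from the position means correlated above 0.1 for 70 of 198 pairs of arrays within a cycle and for 93 of 396 between cycles, and 20 of 36 arrays correlated best with their own cycle, a hint from the data and not the design. The 6-interval component, called for ISU1 and GRX5, was called for 1 member with quantile normalization, with the second probe set and without the mean-variance trend, and for 0 members when any cycle was left out. Without single cycles, 5 to 8 members were called between positions 10 to 12 and 4 to 6, and 1 to 18 steps. Array weights with robust variances gave 30 steps instead of 11. The late-against-middle difference of GRX5 was reversed on its second probe set, at -0.28. The cause of these changes was not tested. Peaks by the highest array differed from fitted peaks by more than the SD of the fitted peaks between cycles for 6 members, most for ISU1 (2.00 against 4.07). The position of the highest ISU1 array itself had an SD of 3.21 between cycles, so this mean of 2.00 is loose.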

Other observations

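The paralogous genes MRS3 and MRS4, whose products carry iron into mitochondria, were highest at different positions, and were picked after their values were seen. MRS3 had its highest mean of 2.60 ± 1.39 (SD, n = 3) at position 8 and its lowest of 0.552 ± 0.083 at position 6, with a swing of 1.64 ± 0.23 (SE) and a fitted peak at position 10.1. MRS4 had its lowest mean of 0.596 ± 0.013 (SD, n = 3) at position 8 and its highest of 1.74 ± 0.23 at position 1, with a swing of 0.51 ± 0.18 (SE). The difference between these 2 courses was not tested.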
